A study of Arabidopsis thaliana with 16 samples.

Results

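The tau and phi glutathione transferases of Arabidopsis thaliana were examined in mature dry seeds of the brm-3dog1-4 double mutant, its parents brm-3 and dog1-4, and Col-0. The 41 members were taken by locus identifier from the 37336 identifiers counted, as GSTU1 to GSTU28 (the 28 tau genes) and GSTF2 to GSTF14 (the 13 phi genes), and all 41 were found. Of these, 17 had enough counts to be tested, 11 tau and 6 phi. In brm-3dog1-4 seeds 9 of the 17 tested members were higher than in Col-0 and 6 were lower, where 46.1% of all tested features differed (22.8% higher, 23.3% lower). Of these 9, GSTU12 had enough counts to be tested only through brm-3dog1-4, and without it 8 of 16 were higher. Among the tested members the tandem neighbours GSTF6 and GSTF7 had the largest changes there, of 35.3-fold and 59.4-fold.

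The assay was 3′RNA-Seq, in which reads fall close to the poly(A) end of each mRNA, and 16 libraries were made, 4 for each genotype. The brm-3 allele is a T-DNA insertion in BRM, the ATPase of a SWI/SNF chromatin remodeling complex, and the study describes its protein as lacking the bromodomain. The dog1-4 allele is an insertion in DOG1, a regulator of seed dormancy, and the brm-3dog1-4 line was made by crossing the single mutants. Col-0 is the wild type, and all plants grew in long days in 1 greenhouse regime. The labels do not say whether the 4 libraries of a genotype came from separate plants or harvests, so p-values measure only the spread between these libraries, which may be technical.

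Glutathione transferases join the tripeptide glutathione to reactive or foreign molecules, after which the conjugates are moved into the vacuole and broken down. Tau and phi are the large plant classes of this family, many of their genes stand in tandem arrays of recent copies, and many respond to stress, herbicides and hormones. Some members also bind small molecules without changing them, or reduce peroxides. In seeds, glutathione is a main buffer against oxidation during drying and storage.

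The libraries held 803578 to 2359673 counts. Levels are given in CPM, the counts of a gene scaled to a common library size with TMM factors. On this scale 3 counts, used as the floor, were worth 0.964 CPM in the deepest effective library and 3.87 CPM in the shallowest. DOG1 was at 2.44 to 5.34 CPM in dog1-4 and at most 4.38 CPM in brm-3dog1-4, against 80.4 to 117 CPM in Col-0. BRM was still counted, at 8.96 to 18.4 CPM in brm-3 and 9.63 to 18.4 CPM in brm-3dog1-4, against 19.3 to 33.3 CPM in Col-0, and 3′ tags cannot separate truncated from whole transcripts. The 9 dry seed markers, among them the cruciferins and oleosin OLEO1, held 8.17% to 11.6% of the counts of every library. Of these 9, 1 rose and 1 fell in brm-3, 1 rose and 3 fell in dog1-4, and 2 rose and 4 fell in brm-3dog1-4 against Col-0. The share of all tested features that differed from Col-0 was 46.1% for the double mutant, 18.4% for dog1-4 and 10.2% for brm-3. Whether the markers changed more often than these shares was not tested. Of the 6 green tissue markers, LHCB2.2 was at 0 in every library and CA1, LHCB1.1 and LHCB1.3 had at most 2 counts in a library, while the summed level of the 6, nearly all of it RBCS1A and RCA, was 26.7 to 32.9 CPM in brm-3, 36.1 to 53.4 CPM in dog1-4 and 64.8 to 115 CPM in brm-3dog1-4, against 7.32 to 14.5 CPM in Col-0. RBCS1A and RCA thus moved in the same order as the family sum below, and their part in it was not tested. In whole seeds fewer cells of a type and less RNA per cell cannot be told apart. Replicate 3 of brm-3dog1-4, the shallowest library of its genotype, stood apart from the other 3 in several members, and counts without it are given below.

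The upstream sequences of 4 members on which the results turn are shown first. GSTF7, GSTU11 and GSTU12 had their highest levels in brm-3dog1-4, and GSTU9 had the smallest adjusted p among the members that fell. Each is the 250 bases before the annotated gene start in the TAIR10.1 assembly, 5′ to 3′ on the strand of the gene, and none overlaps another annotated gene. Capitals mark TGACG (the core of the as-1 and ocs elements bound by TGA factors), ACGTG (the core of the ABA response element) and CATGCA (the RY element of seed genes), searched on both strands, of which TGACG and ACGTG overlap in TGACGTG. Positions are those of the leftmost base of a match, counted back from the gene start.
GSTF7: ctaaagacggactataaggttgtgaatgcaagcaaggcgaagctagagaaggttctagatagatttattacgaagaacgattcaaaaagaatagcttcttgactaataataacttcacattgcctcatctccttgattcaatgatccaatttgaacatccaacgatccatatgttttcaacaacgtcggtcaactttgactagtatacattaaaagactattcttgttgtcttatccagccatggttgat
GSTU11: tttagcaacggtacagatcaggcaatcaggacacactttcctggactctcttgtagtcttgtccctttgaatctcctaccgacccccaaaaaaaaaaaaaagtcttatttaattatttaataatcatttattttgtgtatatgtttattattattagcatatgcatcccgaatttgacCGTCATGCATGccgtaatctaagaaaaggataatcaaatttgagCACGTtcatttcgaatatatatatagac
GSTU12: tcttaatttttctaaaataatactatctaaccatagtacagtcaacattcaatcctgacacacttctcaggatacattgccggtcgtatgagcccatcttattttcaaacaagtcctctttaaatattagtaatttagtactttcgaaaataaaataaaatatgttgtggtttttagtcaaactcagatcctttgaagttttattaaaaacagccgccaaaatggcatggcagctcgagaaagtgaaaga
GSTU9: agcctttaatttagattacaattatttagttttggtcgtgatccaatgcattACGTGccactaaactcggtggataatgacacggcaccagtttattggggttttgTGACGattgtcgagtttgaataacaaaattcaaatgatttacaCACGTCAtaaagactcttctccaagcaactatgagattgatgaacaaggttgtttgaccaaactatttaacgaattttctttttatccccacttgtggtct
The GSTF7 window (chr1:659981-660230, minus strand) held none of the 3 motifs. GSTU11 (chr1:26338819-26339068, minus strand) held TGACG at -72, CATGCA at -69 and -67, and ACGTG at -28, while GSTU12 (chr1:26335631-26335880, minus strand) held none. The GSTU9 window (chr5:25089627-25089876, minus strand) held TGACG at -144 and -99 and ACGTG at -198 and -101, the later pair overlapping. Over the family TGACG was found upstream of 14 of the 41 members (34.1%), against 18.6% of the 27443 protein-coding genes. For ACGTG the shares were 36.6% of the members and 22.9% of those genes, and for CATGCA 7.32% and 8.43%. Among the 17 tested members TGACG stood upstream of 6 (35.3%), ACGTG upstream of 6 (35.3%) and CATGCA upstream of 1 (5.88%). A match is a description of the letters and not a mapped binding site, and of the tandem neighbours GSTU11 and GSTU12 1 had matches and the other had none.

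In Col-0 dry seeds a few members carried most of the family's counts. GSTF2, a phi enzyme that binds indole compounds such as camalexin, had the highest mean at 338 ± 27.7 CPM (SD, n = 4), and its close copy GSTF3 followed at 299 ± 30 CPM. GSTU19, an abundant tau enzyme with high activity on model substrates and herbicides, was at 279 ± 45.6 CPM. The ranges of these 3 overlapped in Col-0. GSTU4 (148 ± 7.15 CPM) and the auxin-inducible GSTU5 (136 ± 4.61 CPM) came next and overlapped each other, and GSTF9, a phi enzyme with peroxidase activity, was at 103 ± 23.4 CPM. Together these 6 members held 84.4% to 86.9% of the family's counts in the Col-0 libraries.

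A middle group followed, with GSTU9 at 52.2 ± 7.82 CPM, GSTU7 at 51.6 ± 7.16 CPM and GSTU16 at 45.5 ± 5.65 CPM in Col-0, all with overlapping ranges. Below them, GSTF6, GSTU13, GSTF8, GSTU17, GSTU26, GSTF7 and GSTU24 had Col-0 means between 3.53 and 11.9 CPM, and neighbours in this order did not part beyond their spread. GSTU12 was at the floor in Col-0, with 0 to 2 counts per library. It entered the test only through brm-3dog1-4, so its place among the tested members is itself a result of its high level there. Dividing CPM by coding length moved no member with Col-0 counts by more than 1 place in the Col-0 order.

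**Figure D1:**
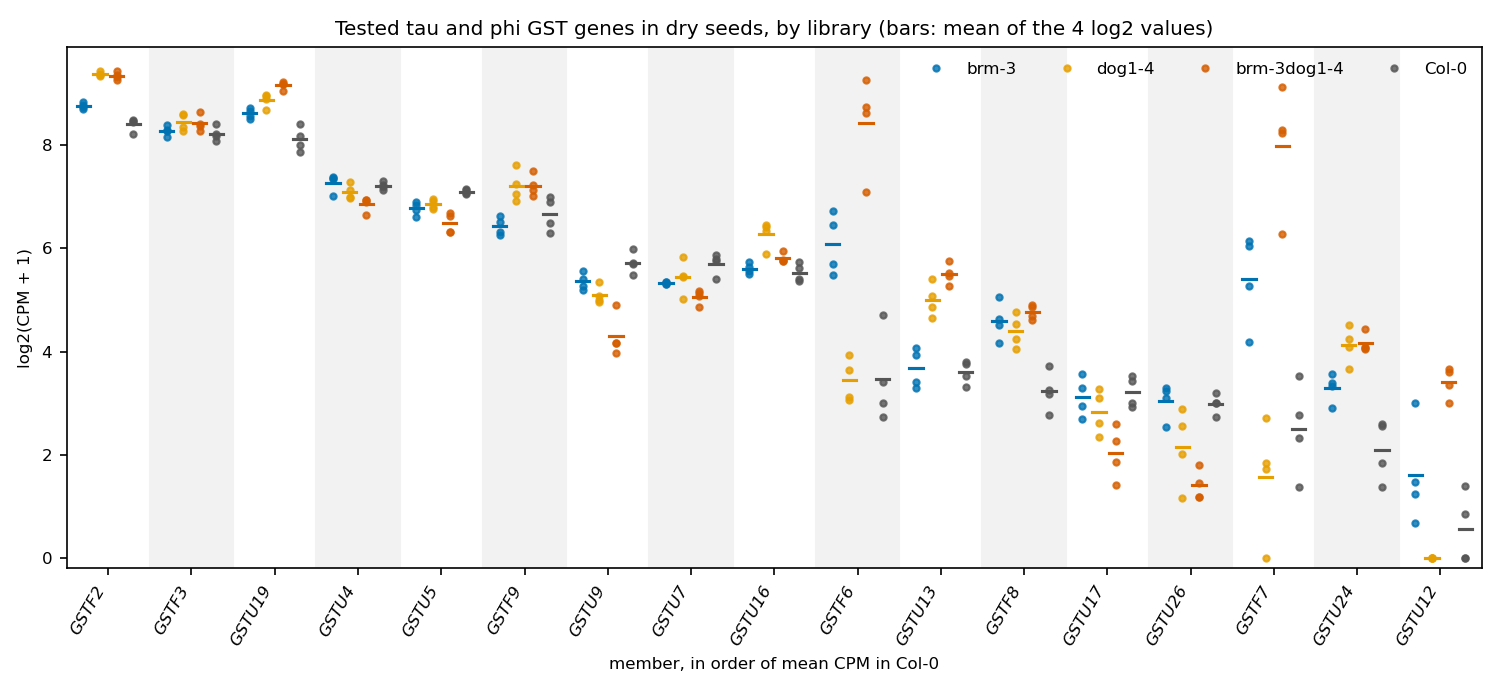
Levels of the 17 tested members in dry seeds as log2(CPM + 1), with 1 point per library, a bar at the mean of the 4 log2 values, and the genotypes of each member as brm-3, dog1-4, brm-3dog1-4 and Col-0 in turn. GSTF2, GSTF3 and GSTU19 lie at the top in Col-0, at 338, 299 and 279 CPM, and GSTF6 and GSTF7 show the widest gap between brm-3dog1-4 and Col-0.

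Another 18 members, 12 tau and 6 phi, never exceeded 3 counts in any of the 16 libraries and were not measurable at this depth in any genotype. They were GSTU2, GSTU3, GSTU6, GSTU8, GSTU14, GSTU15, GSTU18, GSTU21, GSTU22, GSTU23, GSTU25, GSTU27, GSTF4, GSTF5, GSTF11, GSTF12, GSTF13 and GSTF14. GSTF12, known as TT19, carries flavonoids to the vacuole while the seed coat develops, and it had at most 2 counts in a library of mature seeds. The last 6 members, GSTU1, GSTU10, GSTU11, GSTU20, GSTU28 and GSTF10, lay between the floor and the filter and are described by their counts.

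Few members share near-identical sequence in which reads could be split between copies. Only GSTF2 with GSTF3 (94.5%) and GSTF6 with GSTF7 (94.3%) were more than 90% identical in coding sequence among the 820 pairs, and the next pair was at 85.5%. Within the last 300 transcript bases, where 3′ tags fall, the longest run shared by GSTF2 and GSTF3 was 37 bases and by GSTF6 and GSTF7 27 bases. The sources used here do not state whether counting used strand. GSTF2 lies over the gene TOC159 on the opposite strand for 1442 bases, so their reads could be confused without strand. TOC159 was at 108 CPM in brm-3, 109 CPM in dog1-4 and 112 CPM in brm-3dog1-4, against 126 CPM in Col-0, while GSTF2 rose in all 3 mutants. GSTU17 overlaps the downstream neighbour GSTU18 by 71 bases on the same strand, and GSTU18 had 1 count in all. The shared bases are the 3′ end of GSTU17, where its tags fall, so reads there could be lost or confused. The genes that overlap GSTU7 and GSTF8 had between 0 and 3 counts in total.

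The summed level of the 41 members was higher in each mutant than in Col-0, and every mutant library exceeded every Col-0 library. It was 1802 ± 65.4 CPM in brm-3, 2139 ± 82.9 CPM in dog1-4 and 2853 ± 434 CPM in brm-3dog1-4, against 1515 ± 107 CPM in Col-0 (SD, n = 4 each). Phi genes summed to 1874 ± 407 CPM in brm-3dog1-4, against 765.9 ± 44.2 CPM in Col-0, and tau genes to 978.7 ± 33.2 CPM, against 748.8 ± 64.6 CPM. GSTF6 and GSTF7 alone made up 9.03% to 34.3% of the family's counts in brm-3dog1-4 and 3.47% to 9.32% in brm-3, but 0.34% to 0.943% in dog1-4 and 0.503% to 2.17% in Col-0. Without these neighbours the sum was 2149.7 ± 62.1 CPM in brm-3dog1-4 and 2126.0 ± 85.7 CPM in dog1-4, values that overlapped, against 1497.4 ± 94.9 CPM in Col-0. TMM scaling set the median change of all tested features near 0. Without it that median, on the log2 scale, stood at 0.03 for brm-3, at 0.22 for dog1-4 and at 0.58 for the double mutant, and all changes here are relative to that median.

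**Figure D2:**
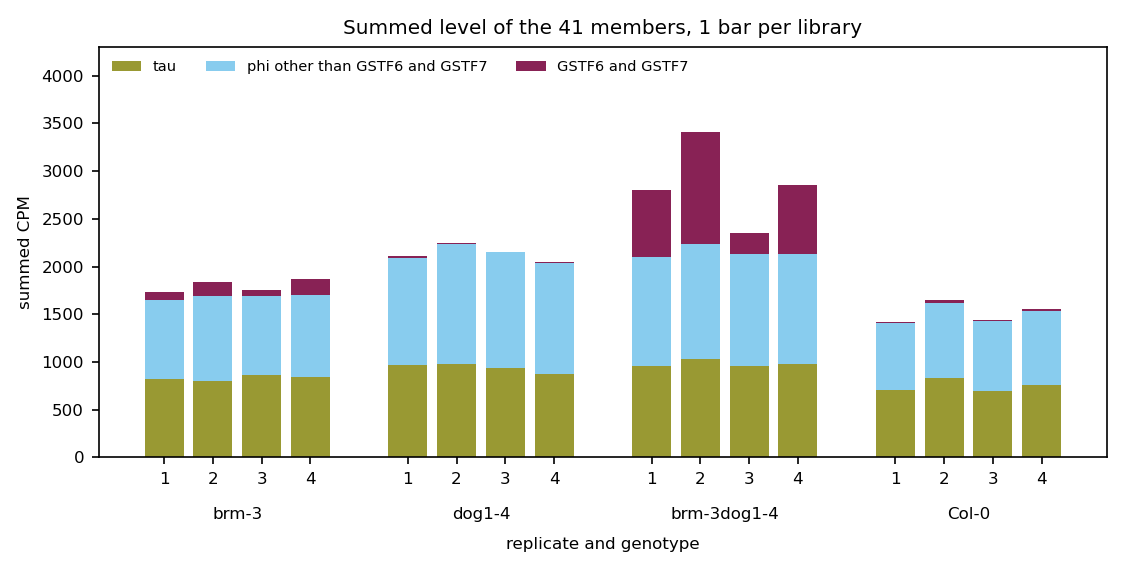
Summed CPM of the 41 members, 1 bar per library (replicates 1 to 4 of brm-3, dog1-4, brm-3dog1-4 and Col-0), split into tau genes, phi genes other than GSTF6 and GSTF7, and GSTF6 with GSTF7. The sums run from 2348 to 3408 CPM in brm-3dog1-4 and from 1420 to 1649 CPM in Col-0, and replicate 3 of brm-3dog1-4 has the smallest GSTF6 and GSTF7 part of its genotype.

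Each comparison asked which members differ between 2 genotypes, with edgeR's quasi-likelihood test fitted to all 10251 features that passed the filter and p-values adjusted over all of them by Benjamini and Hochberg. A member passed at an adjusted p under 0.05. In brm-3 against Col-0, 5 members rose (GSTF2, GSTF6, GSTF8, GSTU19 and GSTU24) and 1 fell (GSTU5) of the 17 tested, where 10.2% of all tested features passed (5.22% higher, 5.02% lower). In dog1-4 against Col-0, 7 rose (GSTF2, GSTF8, GSTF9, GSTU13, GSTU16, GSTU19 and GSTU24) and 1 fell (GSTU9), where 18.4% of all features passed (9.84% higher, 8.58% lower). For brm-3dog1-4 against Col-0 the counts were 9 up and 6 down, where 46.1% of all features passed (22.8% higher, 23.3% lower). The members that rose were GSTF2, GSTF6, GSTF7, GSTF8, GSTF9, GSTU12, GSTU13, GSTU19 and GSTU24, and those that fell were GSTU4, GSTU5, GSTU7, GSTU9, GSTU17 and GSTU26. All 5 phi members that passed in brm-3dog1-4 rose, while 4 tau members rose and 6 fell. GSTU12 is among these 4 but passed the filter only through brm-3dog1-4, and without it 8 of 16 tested members rose and 6 fell. The medians and counts that follow still include GSTU12 in each mutant. Its dog1-4 value of -2.93 is fitted to libraries without a count, and the sign of the dog1-4 median depends on including it. The median log2 change over the tested members stood at 0.08 for brm-3, at -0.07 for dog1-4 and at 0.56 for the double mutant, against medians of 0.00, 0.00 and 0.01 over all tested features. With an absolute log2 fold change over 1 as a second threshold, 3 members were left in brm-3, 3 in dog1-4 and 10 in the double mutant, where 3.03%, 6.24% and 18.2% of all features were. Without replicate 3 of brm-3dog1-4 the counts at an adjusted p under 0.05 were 8, 8 and 17. The filter was run anew on the libraries left, so these counts are not out of the same 17 members. Among those 17, only GSTF7 in brm-3 gained a call against Col-0, and the other added calls came from members newly let in. Members can be let in through a high level in brm-3dog1-4, as GSTU12 was. A call of such a member in brm-3dog1-4 follows from the filter and adds no support. The libraries did not overlap with those of Col-0 in 8 members for brm-3, 8 for dog1-4 and 16 for the double mutant, where 14.3%, 19.8% and 39.8% of all features did not. These comparisons share the Col-0 libraries, so the same Col-0 values stand under each.

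**Figure D3:**
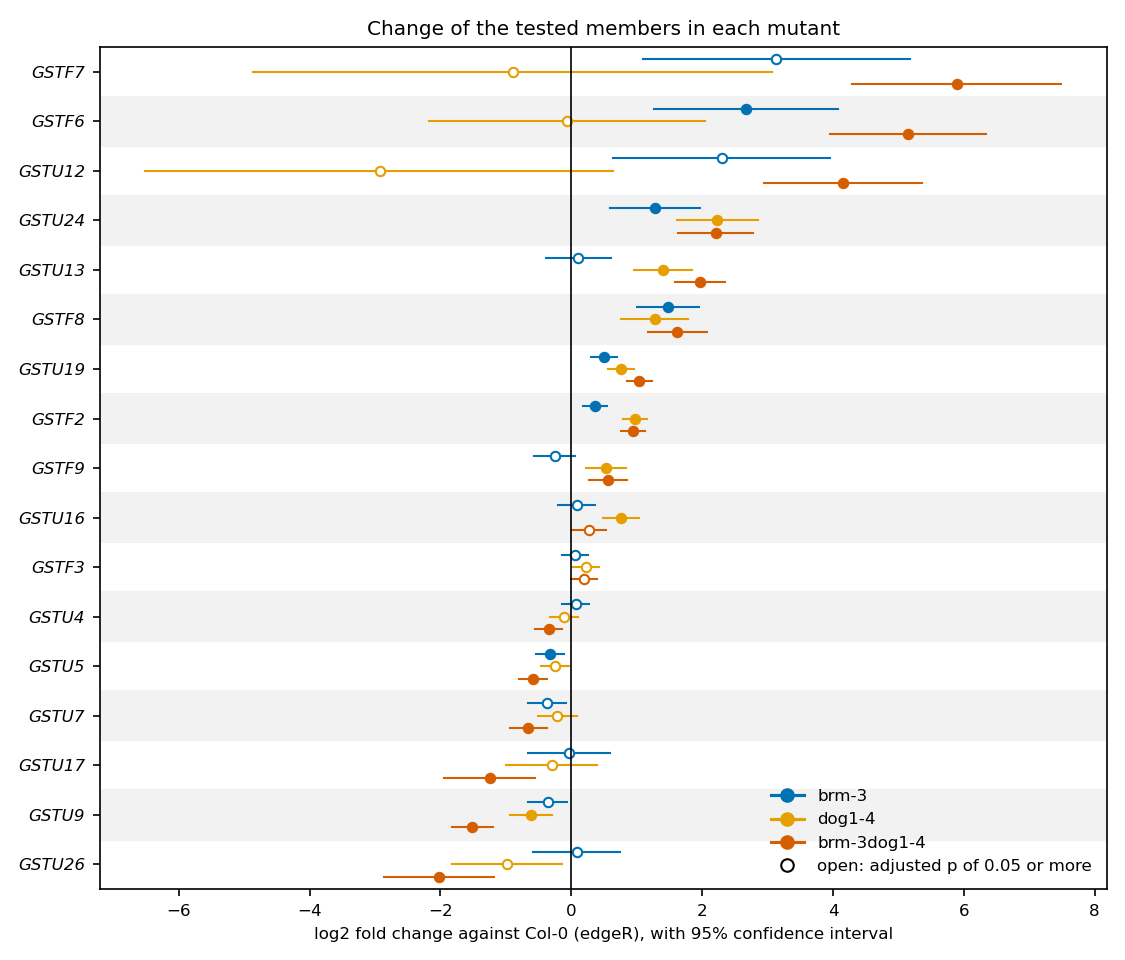
Log2 fold changes of the 17 tested members against Col-0, with 95% confidence intervals from edgeR, with brm-3 at the top, dog1-4 in the middle and the double mutant at the bottom within each member. Filled points passed an adjusted p of 0.05, and the members are ordered by their change in brm-3dog1-4, from GSTF7 at 5.89 to GSTU26 at -2.03; the dog1-4 value of GSTU12 is fitted to 4 libraries without a count and sets no bound.

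GSTF6 and GSTF7 are tandem phi genes, and GSTF6 is known to take part in the synthesis of the defense compound camalexin. GSTF6 (AT1G02930) had 51.2, 86.1, 43.6 and 105 CPM in brm-3, 14.3, 7.74, 7.33 and 11.5 CPM in dog1-4, and 392, 614, 135 and 424 CPM in brm-3dog1-4, against 7.07, 25.2, 5.63 and 9.64 CPM in Col-0. All brm-3 libraries lay above all Col-0 and dog1-4 libraries, and all brm-3dog1-4 libraries lay above all others. In brm-3dog1-4 replicate 2 was highest and replicate 3 lowest. The log2 fold change of GSTF6 against Col-0 was 5.14 in brm-3dog1-4 (standard error 0.55, adjusted p = 3.86e-06), 2.67 in brm-3 (standard error 0.65, adjusted p = 0.0189) and -0.07 in dog1-4 (standard error 0.97, adjusted p = 0.976). The call in brm-3 was lost without Col-0 replicate 1 (adjusted p = 0.0687), Col-0 replicate 3 (0.054), Col-0 replicate 4 (0.0548) or brm-3 replicate 4 (0.0532), with log2 fold changes from 2.42 to 3.25 over all libraries left out in turn.

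GSTF7 (AT1G02920) followed the same order. Its levels were 37.6, 64.9, 17.3 and 69.4 CPM in brm-3, 5.59, 2.58, 0 and 2.29 CPM in dog1-4, and 312, 555, 77.1 and 302 CPM in brm-3dog1-4, against 4.04, 10.6, 1.61 and 5.79 CPM in Col-0. Every brm-3dog1-4 library was again above every other library, and brm-3 and Col-0 did not overlap. The log2 fold change was 5.89 in brm-3dog1-4 (standard error 0.74, adjusted p = 1.79e-05) and 3.14 in brm-3, where it did not pass (standard error 0.94, adjusted p = 0.0542). That value depended on the fit. Its adjusted p ran from 0.000722 (DESeq2) to 0.102 over other normalizations, filters, sample sets and tools, and was 3e-12 with a replicate block. It passed when only brm-3 and Col-0 were fitted (adjusted p = 0.0287), and without brm-3 replicate 3 (adjusted p = 0.0395), brm-3dog1-4 replicate 2 (0.031) or brm-3dog1-4 replicate 3 (0.00906). In dog1-4 the fitted value was -0.90 (95% confidence interval -4.86 to 3.07, adjusted p = 0.805), so a change in either direction was not detectable. Between the double mutant and the single mutants both genes differed. GSTF6 was higher in brm-3dog1-4 by 2.47 than in brm-3 (adjusted p = 0.000289) and by 5.21 than in dog1-4 (adjusted p = 1.47e-05) on the log2 scale, and GSTF7 by 2.76 (adjusted p = 0.000688) and 6.79 (adjusted p = 5.16e-05).

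The tau genes GSTU10, GSTU11 and GSTU12 were also counted mainly in brm-3dog1-4. GSTU12 (AT1G69920) had 1.37, 0.607, 1.79 and 7.05 CPM in brm-3, no count in any dog1-4 library, and 11.6, 11.2, 7.01 and 9.21 CPM in brm-3dog1-4, against 0, 1.63, 0.804 and 0 CPM in Col-0. The brm-3dog1-4 libraries lay above those of dog1-4 and Col-0, and replicate 4 of brm-3 reached into their range. From summed counts of 93 and 3 the ratio of brm-3dog1-4 to Col-0 was 20.6, with a counting interval from 6.82 to 102 that covers counting error only. Since the level in brm-3dog1-4 let GSTU12 pass the filter, no p is given for that comparison. In brm-3 the fitted log2 fold change against Col-0 was 2.30 (adjusted p = 0.0642), which passed without Col-0 replicate 2 (adjusted p = 0.0274), brm-3 replicate 1 (0.0496) or brm-3 replicate 2 (0.0273). In dog1-4 the 4 libraries together had 0 counts, so GSTU12 was at least 16.9-fold higher in brm-3dog1-4 and at least 4.55-fold higher in brm-3 than in dog1-4, taking the floor of 3 counts over the group.

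GSTU11, the tandem neighbour of GSTU12, had 21, 33, 0 and 14 counts in brm-3dog1-4, 4, 3, 4 and 8 in brm-3 and 0 in every dog1-4 library, against 1, 1, 0 and 1 in Col-0. The library of brm-3dog1-4 without a count was replicate 3, where 0 of 977878 counts allows up to 2.63 CPM. The ratio to Col-0 was 5.87 in brm-3 (counting interval 1.73 to 30.9) and 15 in brm-3dog1-4 (4.93 to 74.7), and GSTU11 was at least 12.3-fold higher in brm-3dog1-4 than in dog1-4. GSTU10 (AT1G74590) had 15, 32, 4 and 23 counts in brm-3dog1-4, 0, 2, 0 and 8 in brm-3 and 0 in every dog1-4 library, against a single count over the 4 Col-0 libraries. Its ratio to Col-0 was 9.26 in brm-3 (counting interval 1.32 to 402) and 49.1 in brm-3dog1-4 (8.54 to 1970). GSTF10, a phi gene induced by dehydration, had 5, 21, 0 and 5 counts in brm-3dog1-4 and 1 count in brm-3, with 0 in dog1-4 and Col-0, so it was at least 6.86-fold higher in brm-3dog1-4 than in Col-0. GSTU10, GSTU11 and GSTF10 did not pass the filter and have no test.

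**Figure D4:**
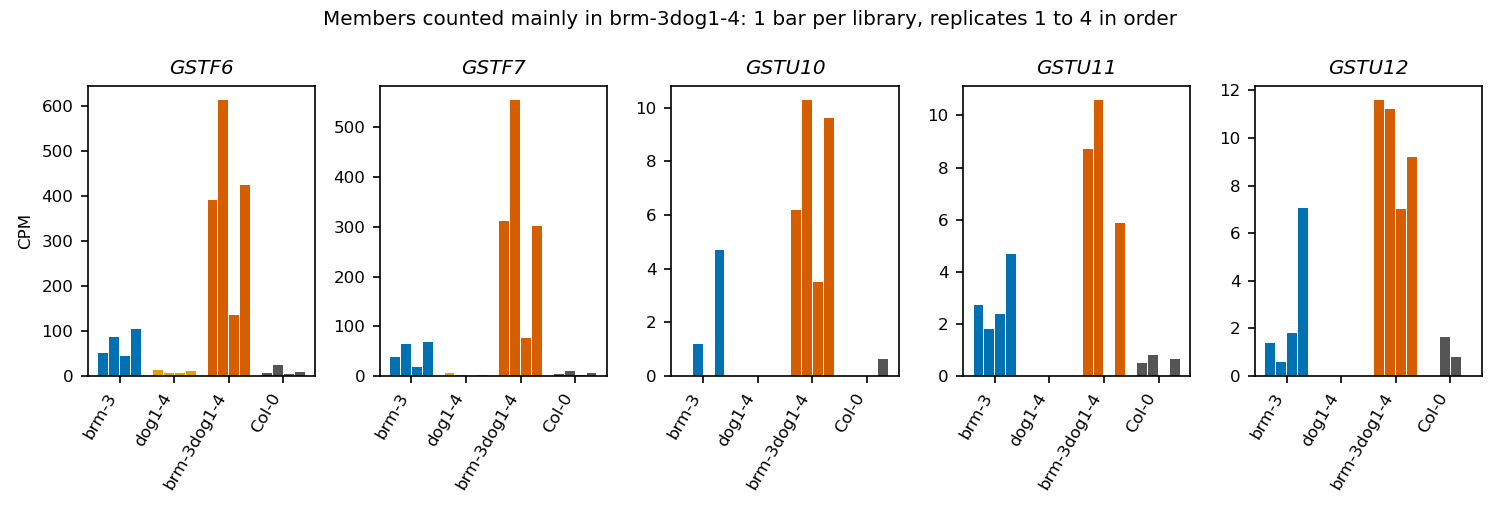
CPM of GSTF6, GSTF7, GSTU10, GSTU11 and GSTU12, 1 bar per library with replicates 1 to 4 in order within brm-3, dog1-4, brm-3dog1-4 and Col-0, on a separate linear axis for each gene. GSTF6 reaches 135 to 614 CPM in brm-3dog1-4 and 5.63 to 25.2 CPM in Col-0, GSTU10, GSTU11 and GSTU12 stay under 12 CPM, and GSTU11 has no bar in replicate 3 of brm-3dog1-4.

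Among the abundant members, GSTF2 and GSTU19 rose in all 3 mutants. GSTF2 (AT4G02520) had 414, 456, 428 and 439 CPM in brm-3, 666, 660, 645 and 689 CPM in dog1-4, and 639, 688, 610 and 660 CPM in brm-3dog1-4, against 348, 297, 351 and 356 CPM in Col-0. The 3 mutants each lay above Col-0, brm-3 lay below the other 2, and dog1-4 and brm-3dog1-4 overlapped. The log2 fold changes were 0.36 in brm-3 (adjusted p = 0.00535), 0.97 in dog1-4 (adjusted p = 6.2e-13) and 0.94 in brm-3dog1-4 (adjusted p = 2.1e-13), each with a standard error of 0.09. Between brm-3dog1-4 and dog1-4 the difference was -0.03 (95% confidence interval -0.211 to 0.145).

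GSTF3, which shares 94.5% of its coding bases with GSTF2, did not pass in any comparison. It had 310, 334, 284 and 311 CPM in brm-3, 307, 382, 389 and 326 CPM in dog1-4, and 329, 309, 397 and 339 CPM in brm-3dog1-4, against 271, 341, 287 and 296 CPM in Col-0, and all genotypes overlapped. Its log2 fold change in brm-3dog1-4 was 0.20 (standard error 0.10, adjusted p = 0.0957), and adjusted p ran from 0.00411 to 0.148 over the other normalizations, filters and tools. It passed without Col-0 replicate 2 (adjusted p = 0.0442) or brm-3dog1-4 replicate 2 (0.0391), and so did its dog1-4 value of 0.23 without Col-0 replicate 2 (0.0493). The dog1-4 value also passed with at least 10 counts in every library (adjusted p = 0.044) and with only the groups compared (0.0446). With at least 10 counts in every library, the GSTF3 difference between brm-3dog1-4 and brm-3 passed too (adjusted p = 0.0278). The log2 ratio of GSTF2 to GSTF3 stood at 0.49 ± 0.08 for brm-3, at 0.93 ± 0.20 for dog1-4 and at 0.92 ± 0.22 for the double mutant, against 0.18 ± 0.25 in Col-0 (SD, n = 4 each). The 4 libraries of each mutant lay above the 4 of Col-0. This gives p = 0.0286 in an exact two-sided permutation test, the smallest that 4 against 4 libraries allow, and 0.0571 after adjustment over 12 such tests. GSTF2 and GSTF3 were chosen as a pair after their values were seen. Over 12 tests 1 fully separated pair alone cannot reach an adjusted p under 0.05.

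GSTU19 (AT1G78380) had 376, 365, 420 and 406 CPM in brm-3, 502, 494, 473 and 412 CPM in dog1-4, and 532, 584, 581 and 594 CPM in brm-3dog1-4, against 256, 338, 232 and 288 CPM in Col-0. Every mutant library was above every Col-0 library, and brm-3dog1-4 lay above both single mutants. The log2 fold changes were 0.49 in brm-3 (adjusted p = 0.000274), 0.76 in dog1-4 (adjusted p = 1.95e-08) and 1.04 in brm-3dog1-4 (adjusted p = 9.65e-14), with standard errors of 0.10. Against dog1-4, brm-3dog1-4 was higher by 0.28 (adjusted p = 0.0214), a call lost without dog1-4 replicate 4 (adjusted p = 0.118) or brm-3dog1-4 replicate 4 (0.0585).

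GSTF9 parted the single mutants. It had 79.2, 89.8, 97.9 and 75.2 CPM in brm-3, 132, 194, 152 and 120 CPM in dog1-4, and 148, 179, 140 and 129 CPM in brm-3dog1-4, against 77.2, 127, 89.3 and 118 CPM in Col-0. Levels in brm-3dog1-4 lay above Col-0, and those in brm-3 lay below both other mutants. It rose by 0.53 on the log2 scale in dog1-4 (adjusted p = 0.0119) and by 0.56 in brm-3dog1-4 (adjusted p = 0.00174), and had -0.25 in brm-3 (adjusted p = 0.364). The dog1-4 call was lost without Col-0 replicate 1 (log2 fold change 0.39, adjusted p = 0.0551). The difference between brm-3 and dog1-4 was -0.78 (adjusted p = 0.000317).

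GSTU4 and GSTU5, neighbours on chromosome 2, were the abundant members that fell. GSTU5 (AT2G29450) had 113, 97.1, 106 and 119 CPM in brm-3, 108, 120, 110 and 123 CPM in dog1-4, and 98.2, 102, 78.8 and 78.3 CPM in brm-3dog1-4, against 133, 132, 139 and 141 CPM in Col-0. Every mutant library was below every Col-0 library. It fell by 0.59 on the log2 scale in brm-3dog1-4 (adjusted p = 4.25e-06) and by 0.33 in brm-3 (adjusted p = 0.0375), and had -0.25 in dog1-4 (adjusted p = 0.112). The brm-3 call was lost without any 1 of Col-0 replicates 1, 2, 3 and 4 (adjusted p = 0.0653, 0.0511, 0.088 and 0.0945) or of brm-3 replicates 1, 2 and 3 (adjusted p = 0.0573, 0.153 and 0.0884), by DESeq2 (0.061) and with all features of at least 1 count (0.066).

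GSTU4 (AT2G29460) had 162, 163, 165 and 128 CPM in brm-3, 127, 139, 125 and 156 CPM in dog1-4, and 121, 121, 99.9 and 118 CPM in brm-3dog1-4, against 145, 157, 140 and 148 CPM in Col-0. Only the brm-3dog1-4 libraries lay below those of Col-0. It fell by 0.34 in brm-3dog1-4 (adjusted p = 0.00475), and the call was lost with at least 10 counts required in every library (adjusted p = 0.0546). The single mutant values were 0.07 in brm-3 (adjusted p = 0.779) and -0.11 in dog1-4 (adjusted p = 0.531).

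GSTU9 fell most clearly among the members of middle level. It had 46.4, 35.8, 37.6 and 41.7 CPM in brm-3, 32.9, 31, 30.1 and 39.7 CPM in dog1-4, and 17, 17, 28.9 and 14.7 CPM in brm-3dog1-4, against 51, 62.7, 51.5 and 43.7 CPM in Col-0. The brm-3dog1-4 libraries lay below all others, with replicate 3 nearest to them, and dog1-4 lay below Col-0. It fell by 1.51 on the log2 scale in brm-3dog1-4 (standard error 0.16, adjusted p = 4.38e-12) and by 0.62 in dog1-4 (standard error 0.16, adjusted p = 0.00289), and had -0.36 in brm-3 (standard error 0.15, adjusted p = 0.111). The level in brm-3dog1-4 was lower than in brm-3 by 1.15 (adjusted p = 4.59e-08) and than in dog1-4 by 0.89 (adjusted p = 8.36e-05).

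GSTU7 (AT2G29420) had 38.9, 40, 40 and 38.8 CPM in brm-3, 55.9, 42.6, 43.2 and 31.3 CPM in dog1-4, and 32.7, 34.1, 35 and 28 CPM in brm-3dog1-4, against 41.4, 54.5, 57.9 and 52.7 CPM in Col-0. It was lower in every brm-3 and brm-3dog1-4 library than in every Col-0 library, and the dog1-4 libraries overlapped every other genotype. It fell by 0.66 in brm-3dog1-4 (adjusted p = 0.000111) and had -0.37 in brm-3 (adjusted p = 0.0997), where it passed without Col-0 replicate 1 (adjusted p = 0.0433), and -0.22 in dog1-4 (adjusted p = 0.358). GSTU16 (AT1G59700) had 46.4, 52.2, 44.2 and 48.8 CPM in brm-3, 80.1, 86.5, 83.9 and 58 CPM in dog1-4, and 53, 53.3, 60.5 and 54 CPM in brm-3dog1-4, against 41.4, 52.1, 40.2 and 48.2 CPM in Col-0. It was highest in dog1-4, where 3 of 4 libraries lay above 80 CPM. It rose by 0.76 in dog1-4 (adjusted p = 1.62e-05), had 0.08 in brm-3 (adjusted p = 0.801) and had 0.27 in brm-3dog1-4 (adjusted p = 0.0853), which passed with upper-quartile normalization (adjusted p = 0.0372) and with at least 10 counts required in every library (adjusted p = 0.01). The level in brm-3dog1-4 was lower than in dog1-4 by 0.48 (adjusted p = 0.00218).

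Further members of low level in Col-0 rose in dog1-4 and brm-3dog1-4. GSTU24, known for detoxifying the explosive TNT, had 10.9, 9.1, 9.56 and 6.46 CPM in brm-3, 18, 11.6, 22 and 16 CPM in dog1-4, and 20.7, 16.1, 15.8 and 15.5 CPM in brm-3dog1-4, against 5.05, 4.88, 1.61 and 2.57 CPM in Col-0. All mutant libraries lay above all Col-0 libraries. The log2 fold changes were 1.27 in brm-3 (adjusted p = 0.00811), 2.23 in dog1-4 (adjusted p = 6.79e-08) and 2.21 in brm-3dog1-4 (adjusted p = 2.14e-09). GSTF8, whose promoter is a much used marker of early stress responses, had 21.8, 17, 23.9 and 32.3 CPM in brm-3, 18, 15.5, 26.1 and 22.1 CPM in dog1-4, and 23.6, 28.9, 28 and 24.7 CPM in brm-3dog1-4, against 8.58, 12.2, 8.04 and 5.79 CPM in Col-0. The mutants overlapped each other and none overlapped Col-0. GSTF8 rose by 1.48 in brm-3 (adjusted p = 4.29e-06), 1.28 in dog1-4 (adjusted p = 0.000101) and 1.62 in brm-3dog1-4 (adjusted p = 1.28e-08).

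GSTU13, which acts in indole glucosinolate metabolism, had 8.88, 9.71, 14.3 and 15.9 CPM in brm-3, 24.2, 41.3, 32.6 and 28.2 CPM in dog1-4, and 44.7, 53, 42.9 and 37.7 CPM in brm-3dog1-4, against 12.6, 8.95, 10.5 and 12.9 CPM in Col-0. The brm-3 and Col-0 libraries overlapped, and both lay below all dog1-4 and brm-3dog1-4 libraries. It rose by 1.40 in dog1-4 (adjusted p = 1.02e-06) and 1.97 in brm-3dog1-4 (adjusted p = 1.47e-13), and had 0.10 in brm-3 (95% confidence interval -0.394 to 0.602, adjusted p = 0.874). Against dog1-4 the level in brm-3dog1-4 was higher by 0.57 (adjusted p = 0.00567), a call lost without dog1-4 replicate 1 (log2 fold change 0.44, adjusted p = 0.0643).

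At the low end, GSTU26 and GSTU17 fell in brm-3dog1-4. GSTU26 (AT1G17190) had 8.88, 8.49, 4.78 and 7.64 CPM in brm-3, 1.24, 6.45, 4.89 and 3.05 CPM in dog1-4, and 2.49, 1.28, 1.75 and 1.26 CPM in brm-3dog1-4, against 7.07, 8.14, 5.63 and 7.07 CPM in Col-0. It fell by 2.03 in brm-3dog1-4 (standard error 0.42, adjusted p = 5.56e-05), where the libraries had 2 to 6 counts each, and had 0.08 in brm-3 (adjusted p = 0.931) and -0.99 in dog1-4 (adjusted p = 0.0951). GSTU17, also known as ERD9 and studied for its role in drought and light responses, had 5.46, 6.67, 10.8 and 8.82 CPM in brm-3, 8.69, 5.16, 4.07 and 7.63 CPM in dog1-4, and 1.66, 3.85, 2.63 and 5.02 CPM in brm-3dog1-4, against 6.56, 9.77, 10.5 and 7.07 CPM in Col-0. It fell by 1.25 in brm-3dog1-4 (standard error 0.35, adjusted p = 0.00234), and had -0.04 in brm-3 (adjusted p = 0.971) and -0.30 in dog1-4 (adjusted p = 0.623). For both genes brm-3dog1-4 lay below Col-0 and brm-3 without overlap.

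The remaining members between floor and filter gave few counts. GSTU1 (AT2G29490) had 7 counts over the brm-3 libraries, 4 over those of dog1-4 and 6 over those of the double mutant, against 20 in Col-0. GSTU20, which binds the jasmonate enzyme FIN219/JAR1, had 9 counts in dog1-4, 16 in brm-3dog1-4 and 1 in brm-3, against 0 in Col-0, so it was at least 3.66-fold higher in dog1-4 and at least 3.54-fold higher in brm-3dog1-4 than in Col-0. GSTU28 (AT1G53680) had 9 counts over the brm-3 libraries, 2 over those of dog1-4 and 10 over those of the double mutant, against 8 in Col-0.

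In direct comparisons brm-3dog1-4 differed from each single mutant in part of the members. Of the 17 tested, 4 did not pass against brm-3 and 8 did not pass against dog1-4. Against brm-3, 8 members were higher in brm-3dog1-4 and 5 lower, where 38.2% of all features passed (18.5% higher, 19.7% lower), and against dog1-4, 5 were higher and 4 lower, where 27.6% of all features passed (12.1% higher, 15.4% lower). Without GSTU12 the members higher were 7 and 4. The members lower in brm-3dog1-4 than in brm-3 were GSTU4, GSTU5, GSTU9, GSTU17 and GSTU26. Of these, GSTU5 (log2 difference -0.27, adjusted p = 0.0435) was lost without brm-3 replicate 1 (adjusted p = 0.0812), 3 (0.0553) or 4 (0.133). Leaving out only replicate 3 (0.0972) or only replicate 4 (0.189) of the double mutant lost it as well. It was also lost in 6 of 7 other settings, with adjusted p from 0.0515 (RLE normalization) to 0.212 (at least 10 counts in every library). Those lower than in dog1-4 were GSTU5, GSTU7, GSTU9 and GSTU16. Here GSTU5 (-0.34, adjusted p = 0.0147) was lost without dog1-4 replicate 4 (adjusted p = 0.0522) or brm-3dog1-4 replicate 4 (0.0814) and with at least 10 counts in every library (0.0673), and GSTU7 (-0.44, adjusted p = 0.0236) without dog1-4 replicate 1 (0.287) or brm-3dog1-4 replicate 4 (0.0894), by DESeq2 (0.0725) and with at least 10 counts in every library (0.0677). Between the single mutants, 3 members were higher in brm-3 than in dog1-4 (GSTF6, GSTF7 and GSTU12) and 5 lower (GSTF2, GSTF9, GSTU13, GSTU16 and GSTU24), where 16.4% of all features passed (8.03% higher, 8.4% lower). Without GSTU12, which entered the test only through brm-3dog1-4, 2 of 16 were higher. GSTF7 (log2 difference 4.03, adjusted p = 0.0289) lost its call between the single mutants without any 1 of dog1-4 replicates 1, 2, 3 and 4 (adjusted p = 0.062, 0.0586, 0.0753 and 0.0782) or of brm-3 replicates 2 and 4 (0.0613 and 0.0686), and with all features of at least 1 count (0.0536). GSTU12 (adjusted p = 0.00369), with no count in dog1-4, lost its call without brm-3 replicate 4 (0.0564). Calls were gained, between brm-3dog1-4 and dog1-4, by GSTU17 without dog1-4 replicate 3 (adjusted p = 0.0314) or brm-3dog1-4 replicate 4 (0.0277) and by GSTU26 without dog1-4 replicate 1 (0.0406). Between brm-3 and dog1-4 they were gained by GSTU19 without dog1-4 replicate 4 (adjusted p = 0.0269) or brm-3dog1-4 replicate 2 (0.0485) or 3 (0.0389), with upper-quartile normalization (0.0203), with at least 10 counts in every library (0.0291) and with only these genotypes fitted (0.0219). They were gained as well by GSTU26 without dog1-4 replicate 2 (0.0351) or 3 (0.048) or brm-3 replicate 3 (0.0397).

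Whether the double mutant differed from the sum of the single mutant changes was tested by the interaction term on the log2 scale. It passed in 4 of the 17 members, all negative, where 8.79% of all features passed, 6.84% negative and 1.95% positive. The values were -1.30 for GSTU24 (adjusted p = 0.0311), -1.14 for GSTF8 (adjusted p = 0.013), -0.57 for GSTU16 (adjusted p = 0.045) and -0.39 for GSTF2 (adjusted p = 0.0424), so for each the change in brm-3dog1-4 was smaller than the single mutant changes added. GSTU16 lost its call in 12 of 16 fits with a library left out and in 5 of 6 other settings (DESeq2 adjusted p = 0.0746), and GSTF2 in 11 of 16 and in 4 of 6. GSTU24 lost it in 7 of 16 and 1 of 4, and GSTF8 in 2 of 16 and 0 of 5. For GSTF6 it was 2.54 (adjusted p = 0.186) and for GSTF7 3.65 (adjusted p = 0.294), which did not pass in the fit used here and did with DESeq2 (adjusted p = 0.00664 and 0.007). Over the other normalizations, filters and tools adjusted p ran from 0.00664 to 0.325 for GSTF6 and from 0.007 to 0.477 for GSTF7. With a replicate block it was 0.0269 for GSTF6 and 5.89e-06 for GSTF7. The number of members passing was between 0 and 6 when libraries were left out in turn. It was 0 without Col-0 replicate 4, and in the double mutant 1 without replicate 4 and 6 without replicate 3. Leaving out Col-0 replicate 1 or 3, any brm-3 library, any of replicates 1 to 3 of dog1-4, or replicate 1 or 2 of the double mutant gave 2, and a count of 3 was found without Col-0 replicate 2 or dog1-4 replicate 4. GSTF6 passed without brm-3dog1-4 replicate 3 (adjusted p = 0.0382), as did GSTU9 (0.0404).

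By gene order in the annotation, 26 of the 41 members stood in 8 tandem arrays with at most 2 other annotated genes between neighbours, and 15 stood alone. With no other gene allowed between neighbours 21 members stood in arrays. Counting only protein-coding genes between neighbours, a rule not planned beforehand, gave 27, as GSTU7 joined GSTU1 to GSTU6. The first rule is used below. Within most arrays 1 or a pair of members carried the counts. In the array of GSTU19 to GSTU23 (chr1:29467412-29488007), GSTU19 had 289 to 1819 counts per library, while GSTU20 had at most 10 and GSTU21, GSTU22 and GSTU23 at most 2. In that of GSTU1 to GSTU6 (chr2:12619630-12632538), GSTU4 and GSTU5 had 90 to 378 counts per library and the other 4 at most 7. The array of GSTF4 to GSTF7 (chr1:658578-666471) held the tested members with the largest rises, GSTF6 and GSTF7, beside GSTF4 and GSTF5 with no count in any library. GSTF9 and GSTF10 (chr2:13138882-13142676) were at 111 to 558 and 0 to 21 counts per library, and GSTU13 and GSTU14 (chr1:9425280-9428914) at 11 to 165 and 0. In the array of GSTU17 and GSTU18 (chr1:3395551-3398358), GSTU17 had 3 to 18 counts per library.

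The array of GSTU24, GSTU25 and GSTU26 (chr1:5869543-5876620) held GSTU24, which rose in brm-3dog1-4, and GSTU26, which fell there. In brm-3 and dog1-4 GSTU24 rose and GSTU26 did not pass. The log2 ratio of GSTU24 to GSTU26 stood at 0.25 ± 0.44 for brm-3, at 1.91 ± 0.91 for dog1-4 and at 2.66 ± 0.14 for the double mutant, against -0.86 ± 0.41 in Col-0 (SD, n = 4 each). Every library of each mutant was above every Col-0 library, which gives p = 0.0286 in an exact two-sided permutation test, the smallest possible, and 0.0857 after adjustment over the 9 tests of neighbouring tested members. For GSTF7 over GSTF6 the log2 ratio was -0.44 ± 0.28 in brm-3dog1-4, against -0.93 ± 0.34 in Col-0 (exact permutation p = 0.0857), and the libraries overlapped. For GSTU5 over GSTU4 it was -0.37 ± 0.15 in brm-3dog1-4, against -0.11 ± 0.10 in Col-0 (exact permutation p = 0.0571). No adjusted p fell under 0.05. With 4 libraries per genotype and 9 tests, 1 pair separated in every mutant could reach no lower than 0.0857. The adjusted values therefore cannot decide whether these neighbours differ. GSTU11 and GSTU12 (chr1:26334250-26338818), both seen mainly in brm-3dog1-4, had too few counts for such a ratio.

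**Figure D5:**
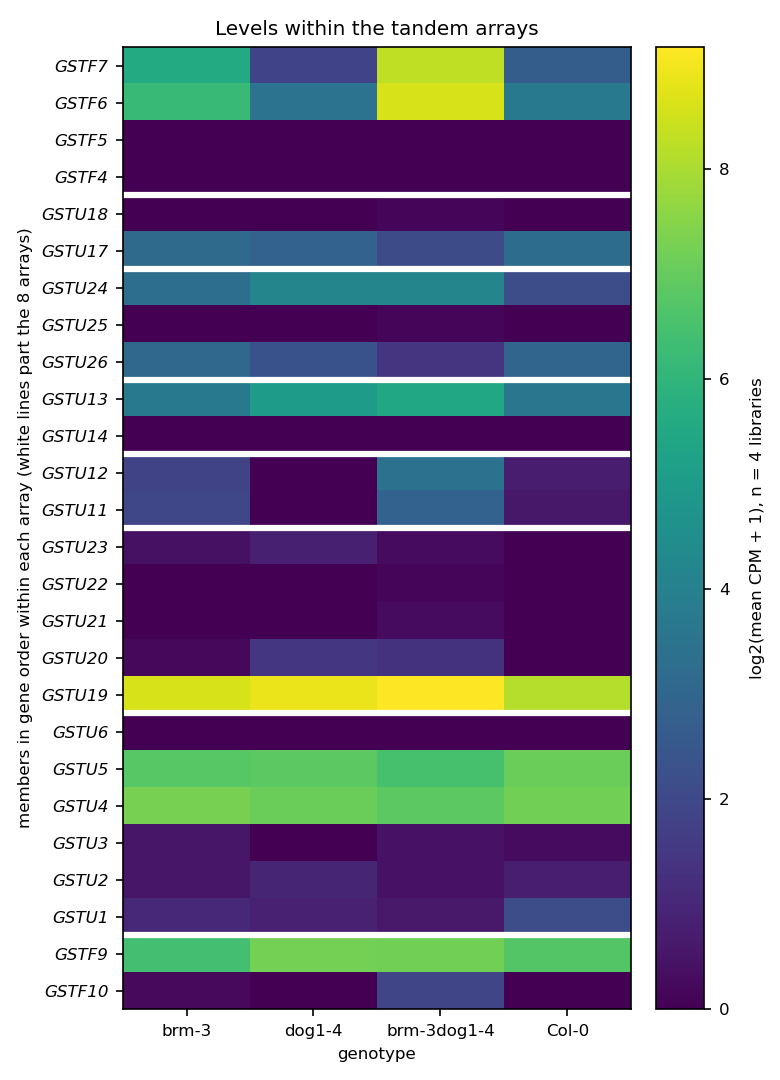
Mean levels (log2 of mean CPM + 1, n = 4 libraries) of the 26 members in the 8 tandem arrays, with members in gene order down the page and genotypes as brm-3, dog1-4, brm-3dog1-4 and Col-0 across. GSTU19 stands out among the 5 members of its array in every genotype, at 279 CPM in Col-0, and GSTF6 and GSTF7 are brightest in brm-3dog1-4.

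Other genes of glutathione use were set beside the family. Of 12 genes of the other glutathione transferase classes 8 were tested, and 1 rose in brm-3, 2 rose in dog1-4, and 1 rose and 1 fell in brm-3dog1-4. These and the counts of the lists below stand against 10.2%, 18.4% and 46.1% of all tested features passing in brm-3, dog1-4 and the double mutant. DHAR1, which recycles ascorbate with glutathione, rose by 0.47 in brm-3 (adjusted p = 0.00298), 0.87 in dog1-4 (adjusted p = 1.46e-08) and 0.58 in brm-3dog1-4 (adjusted p = 1.66e-05). GSTT1, of the theta class, fell by 0.49 in brm-3dog1-4 (adjusted p = 0.000139). Of 13 genes for glutathione synthesis, reduction, turnover and conjugate transport 9 were tested, and 4 rose and 2 fell in brm-3dog1-4. GR1, a glutathione reductase, was at 70.4 ± 4.06 CPM in brm-3dog1-4, against 32.1 ± 4.43 CPM in Col-0 (1.12 on the log2 scale, adjusted p = 1.2e-10). GSH1, the enzyme of the limiting step of glutathione synthesis, was at 193 ± 23.9 CPM in brm-3dog1-4, against 324 ± 17.9 CPM in Col-0 (-0.76 on the log2 scale, adjusted p = 5.51e-10). In brm-3 1 gene of this list rose and 1 fell, and in dog1-4 1 rose.

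Flavonoid genes around GSTF12 mostly did not pass the filter, with 3 of 15 tested. F3H, flavanone 3-hydroxylase, rose by 1.13 in dog1-4 (adjusted p = 0.000169), and TTG1, a regulator of seed coat pigment, fell by 1.22 in dog1-4 (adjusted p = 0.038). All 7 TGA factors, which bind the TGACG core, were tested and 1 passed in each mutant against Col-0. TGA7 was at 20.6 ± 3.74 CPM in brm-3dog1-4 and 18.7 ± 3.95 CPM in brm-3, against 8.3 ± 3.21 CPM in Col-0 (log2 fold changes 1.26 and 1.17, adjusted p = 1.24e-05 and 0.000719). TGA3 rose by 0.89 in dog1-4 (adjusted p = 0.00821).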

How the data were processed

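The authors deposited raw read counts per gene for 16 libraries of 3′RNA-Seq, 4 per genotype. The submitters' processing notes name STAR 2.7.8a, DESeq2 and the TAIR10 genome. The counting program, its strand setting and the use of molecular identifiers are not given in the sources used here. Counts near 3′ ends are not divided by transcript length. Library totals ran from 803578 to 2359673 counts, and intervals and floors from counts cover counting error only.

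The members and gene lists were chosen with earlier results of these data known. Of 37336 identifiers, 21204 had a count and 10251 passed edgeR's expression filter by genotype, holding 98.1% to 99.2% of the counts. edgeR 4.0.16 (R 4.3.3) fitted 1 quasi-likelihood model with TMM scaling to all 16 libraries, with genotype as the term, 7 comparisons and Benjamini-Hochberg adjustment over the 10251 features. A call needed an adjusted p under 0.05. Log2 ratios between neighbours used log2 CPM with a prior count of 2 and exact permutation tests. Upstream windows were read from the TAIR10.1 genome and annotation with Python 3.11.15. The window of 1 member is not reported here. Scripts were tested on simulated data.

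All 41 members were accounted for. Members passing in at least 1 comparison, the 5 highest in Col-0 and GSTU9 to GSTU12 and GSTU19 were given by library or group, and of each other list the 2 genes with the smallest adjusted p against Col-0 were named. No 2 libraries agreed within counting noise (chi-square per degree of freedom 1.44 to 4.34 over 24 pairs within genotypes). Alternatives were other normalizations, filters, sample sets, DESeq2 1.42.0, a replicate block and leaving out each library.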

Additional observations from a re-analysis of the deposited data

Results flagged for a closer look

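In 79 groups of 4 libraries, 6 held a library whose gap to the nearest of the others, divided by the range of the group, exceeded Dixon's 95% critical value. Chance gives such a gap in about 1 in 20 groups. GSTU4 was at 128 CPM in brm-3 replicate 4, against 162 to 165 CPM in the other brm-3 libraries, and GSTU24 was at 20.7 CPM in brm-3dog1-4 replicate 1, against 15.5 to 16.1 CPM in the others. Replicate 3 of brm-3dog1-4 accounted for 3 of the 6, with GSTU4 at 99.9 CPM (others 118 to 121), GSTU9 at 28.9 CPM (others 14.7 to 17) and GSTU16 at 60.5 CPM (others 53 to 54). GSTF2 was at 297 CPM in Col-0 replicate 2, against 348 to 356 CPM in the other Col-0 libraries.

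The effect of brm-3 differed between the dog1-4 and the DOG1 background by edgeR's interaction term in 4 members. The log2 interaction was -0.567 for GSTU16 (adjusted p = 0.045), -1.3 for GSTU24 (adjusted p = 0.0311), -0.392 for GSTF2 (adjusted p = 0.0424) and -1.14 for GSTF8 (adjusted p = 0.013). None of the 4 kept its call under every alternative setting.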

How the results depend on the processing

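Of 63 calls of members in the 7 comparisons, 48 were kept, at an adjusted p under 0.05, under every alternative in which the member could be tested, and 0 reversed. Among the 48 are the calls of GSTU12 between brm-3dog1-4 and Col-0, brm-3 and dog1-4. GSTU12 entered the test only through brm-3dog1-4, so its calls there are no sign of stability. Requiring at least 10 counts in every library left 10 members to test, and the members passing were then 3 in brm-3, 9 in brm-3dog1-4, 7 between brm-3dog1-4 and brm-3, 4 between brm-3dog1-4 and dog1-4, 5 between brm-3 and dog1-4 and 0 for the interaction. With any feature of at least 1 count 35 members were tested and 1 interaction passed, and RLE and upper-quartile normalization gave 2 each. With an absolute log2 fold change over 1 as well, the counts were 3 in brm-3, 3 in dog1-4 and 2 for the interaction. They were 7 between brm-3dog1-4 and brm-3, 3 between brm-3dog1-4 and dog1-4 and 4 between brm-3 and dog1-4. The counts between mutants include GSTU12, let in only through brm-3dog1-4. Of all 10251 tested features, 705 were higher and 499 lower between brm-3dog1-4 and brm-3 at these thresholds. Between brm-3dog1-4 and dog1-4 there were 384 and 395, between brm-3 and dog1-4 234 and 303, and for the interaction 94 and 222. With no scaling beyond the library total, a setting added after seeing the data, the log2 change of the family sum was 0.721 in dog1-4 and 1.47 in brm-3dog1-4, against 0.5 and 0.903 with TMM.

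Leaving out each library in turn gave 4 to 8 members in brm-3, 7 to 9 in dog1-4, 15 to 18 in brm-3dog1-4, 12 to 15 between brm-3dog1-4 and brm-3, 7 to 12 between brm-3dog1-4 and dog1-4, 7 to 11 between brm-3 and dog1-4, and 0 to 6 for the interaction. The filter was run anew each time, so members outside the 17 tested could enter these counts. Some can enter through a high level in brm-3dog1-4, and their calls there add no support. The log2 change of the family sum ran from 0.222 to 0.296 in brm-3, 0.467 to 0.539 in dog1-4 and 0.824 to 0.987 in brm-3dog1-4. Neighbour ratios kept their sign in each case.

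Correlations of same-numbered libraries across genotypes were weak, from -0.035 to 0.072 over 24 pairs. Their mean was 0.02, against -0.0065 for libraries of other numbers, and 9 of 16 libraries were closest to their own number. Whether the numbers mark a weak pairing was not tested. With a replicate block the counts were 7, 8, 15, 13, 9, 9 and 6 in the order above. With that block GSTF7 passed in brm-3 (adjusted p = 3e-12), GSTU19 between brm-3 and dog1-4 (0.0315), and the interaction passed for GSTF6 (2.38, adjusted p = 0.0269) and GSTF7 (3.46, adjusted p = 5.89e-06). Depth limits the 18 members at or under 3 counts.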
